A study of Mus musculus with 3 samples.

Results

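The genes described here are Rai14, Jcad and Sulf2, 3 of the 19505 genes measured by the array. They were chosen by symbol for large rises at the higher cholesterol dose among genes outside the lipid pathways, with no numeric threshold, so their values at that dose are what selected them and are given below as a description. Each gene had 1 named probe set. The samples were mouse CD8 T cells that had received CD3 and CD28 stimulation and cytokines for Tc1 differentiation, the cytotoxic fate that produces interferon-gamma. The groups were a control with no added cholesterol, cholesterol at 0.5 µg/ml and cholesterol at 0.75 µg/ml, and the stimulation and the Tc1 cytokines were common to all 3. Each group had 1 array, so no difference could be tested, p-values are left out, and precision is limited by the small number of arrays. The sources used here do not give the strain, the animals or cultures behind each sample, the exposure time or the carrier of the cholesterol, and cholesterol and carrier cannot be told apart in these data.

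The 3 genes encode proteins that act at the cell cortex or outside the cell. Rai14 encodes ankycorbin, a protein of ankyrin repeats and coiled coils that binds actin filaments, and its name comes from its induction by retinoic acid in human retinal pigment epithelial cells. Jcad encodes a junction protein found with VE-cadherin at endothelial cell contacts, which binds the Hippo kinase LATS2, an inhibitor of the co-activator YAP. Sulf2 encodes an extracellular sulfatase that removes sulfate from heparan sulfate chains and so changes which growth factors and chemokines those chains hold. None of them is known mainly as a T cell gene.

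The start regions of Rai14 and Sulf2 are shown because these genes were high on the same array, to set their promoter elements side by side. The sequences are RefSeq's (GRCm38.p6), 250 bases before the most upstream start that the promoter table lists for each gene, both on the minus strand, at chr15:10714099-10714348 for Rai14 and chr2:166155684-166155933 for Sulf2. Capitals mark matches to the motifs searched. Jcad is named here without a sequence.
Rai14: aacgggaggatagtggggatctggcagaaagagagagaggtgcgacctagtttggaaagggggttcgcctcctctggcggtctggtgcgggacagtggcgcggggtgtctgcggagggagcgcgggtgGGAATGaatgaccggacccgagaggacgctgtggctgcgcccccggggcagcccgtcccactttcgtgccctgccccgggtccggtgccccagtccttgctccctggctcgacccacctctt
Sulf2: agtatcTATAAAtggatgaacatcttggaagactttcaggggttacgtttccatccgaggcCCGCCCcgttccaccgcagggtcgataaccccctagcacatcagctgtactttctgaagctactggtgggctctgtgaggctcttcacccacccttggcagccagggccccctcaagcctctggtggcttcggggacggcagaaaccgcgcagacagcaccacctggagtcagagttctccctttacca

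Both strands were searched for the nuclear receptor motif AGGTCA, the DR4 and DR5 direct repeats that each contain it, the TEAD motif GGAATG, the AP-1 motif TGACTCA, the GC box GGGCGG, the TATA box TATAAA, the NFAT core GGAAAA and the E-box CACGTG. The Rai14 sequence held 1 match, GGAATG, 122 to 117 bases before the start, and 12.6% of the 32851 promoters in the table held this motif. The Sulf2 sequence held a GC box on the opposite strand, 189 to 184 bases before the start, and TATAAA, 244 to 239 bases before it. Those motifs were in 32.7% and 12.4% of all promoters. The printed sequences of Rai14 and Sulf2 thus had no motif of this search in common. The other start listed for Rai14 had AGGTCA on the opposite strand, a motif in 14.0% of promoters, and TATAAA on both strands in overlapping positions, and the other start of Sulf2 had no match. GC content was 67.6% for the Rai14 sequence and 57.2% for that of Sulf2, against a median of 52.4% over all promoters.

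Values are intensities of 1 probe set per array on a linear scale. The background level was set at 102, the highest of the 3 arrays' 95th percentiles of 5222 negative-control probe sets. Differences are on the log2 scale, and a gene was counted as different at 2-fold or more, over the 10940 genes with a mean log2 value at or above that of the median probe set (an intensity of 32.4). All 3 genes passed this filter, and each was above 32.4 on every array.

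Rai14 had an intensity of 51.4 in the control, 71.1 at 0.5 and 322 at 0.75 µg/ml. Only the 0.75 µg/ml array lay above the background level, and the other 2 arrays lay under it. On the control array 87.5% of negative controls were dimmer than Rai14, and on the 0.75 µg/ml array 98.2% were. The log2 difference of 0.75 µg/ml from the control was 2.65, a ratio of 6.26 between intensities of which the lower was within background. With the control value raised to that level, Rai14 was at least 3.16-fold higher. In bulk RNA, fewer or more cells that express a gene and less or more of its RNA per cell cannot be told apart, here and for the genes below.

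Jcad had an intensity of 67.0 in the control, 66.6 at 0.5 and 216 at 0.75 µg/ml. The control and the lower dose were nearly equal and both under the background level, and the higher dose was above it. The log2 difference of 0.75 µg/ml from the control was 1.69, or at least 2.12-fold higher with the control value raised to background. Negative controls dimmer than Jcad made up 91.4% on the control array and 97.6% at 0.75 µg/ml.

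Sulf2 had an intensity of 123 in the control, 92.1 at 0.5 and 316 at 0.75 µg/ml. Its control value exceeded background, and it was just under that level at the lower dose and above it at the higher dose. Its log2 difference of 0.75 µg/ml from the control was 1.36, a 2.56-fold higher intensity, and this fold was measured above background on both arrays. Of the 3 genes, Sulf2 alone had a control intensity above background. That value was only 1.21 times the background level. Negative controls dimmer than Sulf2 made up 95.9% on the control array and 98.2% at 0.75 µg/ml.

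**Figure D1:**
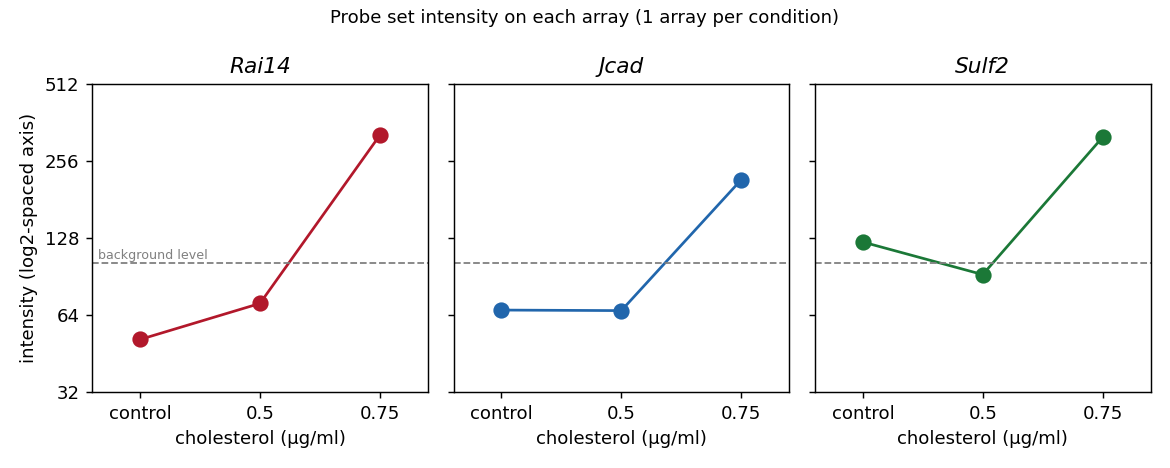
Probe set intensity (vertical axis, log2-spaced) of Rai14, Jcad and Sulf2 on the control, 0.5 and 0.75 µg/ml arrays, 1 point per array and no error bars because each condition had 1 array. The dashed line is the background level of 102. Every gene is highest at 0.75 µg/ml (322, 216 and 316), and at 0.5 µg/ml all 3 lie under the line.

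Across all genes, 39 of 10940 (0.356%) had an intensity at 0.75 µg/ml of 2-fold the control or more. Rai14, Jcad and Sulf2 ranked 2, 7 and 13 by that difference, which their selection fixes. The spread of this difference was an SD of 0.36 over the genes past the filter and 0.31 over the 1165 positive-control probe sets past it. Of the 39 genes, 15 remained at least 2-fold higher when values under background were raised to it, and 6 did so against both the control and the 0.5 µg/ml array. These 6 were Rai14, Jcad, Sulf2, the aldo-keto reductase gene Akr1c13, the Ly6-family gene Ly6g5b and Perp. Perp is a desmosome and apoptosis gene named after its value was seen. Rai14, Jcad and Sulf2 were chosen for their values on the same 0.75 µg/ml array. Their place among the 6 is thus a description and no separate evidence that they stand out.

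The lower dose asked whether the 3 genes had already moved at 0.5 µg/ml, a comparison that the selection rule does not name. It shares the control array, and the genes were chosen with earlier results of these data known, so it is not fully independent of the choice. None of the 3 differed 2-fold at 0.5 µg/ml, where 0.0914% of all genes were higher by that much and 0.0548% were lower. Rai14 differed by 0.47 on the log2 scale, rank 230 from the top of 10940 genes, with both intensities under background. Jcad differed by -0.01, rank 6283, near the middle of all genes. Sulf2 differed by -0.42, rank 285 from the bottom, and was at least 1.21-fold lower with its value at 0.5 µg/ml raised to background. The SD of this difference was 0.21 over genes and 0.30 over positive controls, and Rai14 and Sulf2 lay outside 1 SD of both. Both SDs are spreads across probe sets on 1 pair of arrays and not the error of a repeated measurement. By size of difference, 95.9% of genes past the filter differed less than Rai14 and 94.5% less than Sulf2. With values under background raised to it, Rai14 and Jcad both differed by 0.00 and Sulf2 by -0.28, so a difference of Rai14 from the control at 0.5 µg/ml was not detectable above background.

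Set against the lower dose, the 0.75 µg/ml array had 44 genes (0.402%) that were higher by 2-fold or more, and the 3 genes were among them. The log2 difference was 2.18 for Rai14, 1.78 for Sulf2 and 1.70 for Jcad, ranks 2, 6 and 7. With the 0.5 µg/ml values raised to background, the lower bounds of these folds were 3.16 for Rai14, 3.11 for Sulf2 and 2.12 for Jcad. This comparison uses the same 0.75 µg/ml array that selected the genes and so repeats that array's values. Sulf2 ranks higher here than against the control because its 0.5 µg/ml intensity was the lowest of its 3 values. Of the 39 genes counted against the control, 21 were also 2-fold over the 0.5 µg/ml array, 28 were above the control at 0.5 µg/ml and 10 below it. The median difference of the 39 genes at 0.5 µg/ml was 0.30, so Rai14 lay above that median and Jcad and Sulf2 below it.

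**Figure D2:**
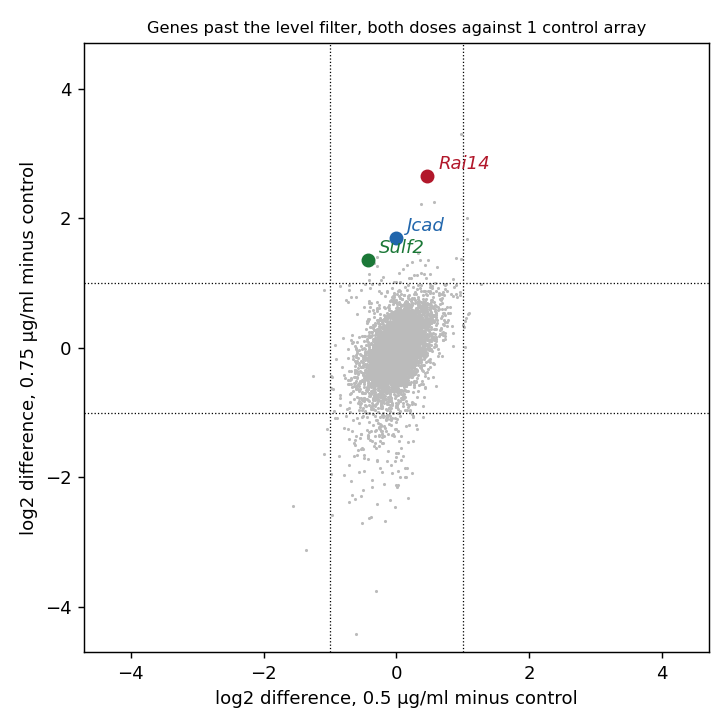
Log2 difference from the control at 0.5 µg/ml (horizontal axis) and at 0.75 µg/ml (vertical axis) for the 10940 genes past the level filter, with dotted lines at 2-fold. Rai14, Jcad and Sulf2 lie at 2.65, 1.69 and 1.36 on the vertical axis, and at 0.47, -0.01 and -0.42 on the horizontal axis. Both axes use the same control array.

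Likeness of pattern was measured as the distance between the pairs of log2 differences from the control at the 2 doses, over 3 arrays, among the 7610 genes past the filter with an intensity above background at 0.75 µg/ml. The genes nearest to Rai14 were Rxra, which encodes a retinoid X receptor (distance 0.40), Csf2, which encodes the growth factor GM-CSF (0.43), the cholesterol exporter gene Abca1 (0.83), Jcad (1.07) and the exporter gene Abcg1 (1.13). Rxra had intensities of 36.0 in the control, 53.5 at 0.5 and 172 at 0.75 µg/ml, and Csf2 of 36.4, 46.8 and 170 in the same order. Their control values, like that of Rai14, were under background, so these distances rest in part on dim values, and closeness at 0.75 µg/ml follows from the choice. The genes nearest to Sulf2 were Ly6g5b (0.10), Eda2r, a TNF-family receptor gene (0.14), the connexin gene Gja1 (0.16), Btbd35f12 (0.38) and the LIM-domain gene Crip2 (0.44). Ly6g5b was at 105, 83.5 and 260, and Gja1 at 58.6, 47.6 and 140, in the order control, 0.5 and 0.75 µg/ml, and both were chosen for this likeness to Sulf2. The genes nearest to Jcad were Eda2r (0.40), Akr1c13 (0.45), the calcium-binding protein gene S100a4 (0.49), Ly6g5b (0.51) and Gja1 (0.52). Eda2r, Ly6g5b and Gja1 were thus near both, and the distance between Jcad and Sulf2 themselves was 0.53. Rai14 was 1.57 from Sulf2.

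Relatives of Sulf2 and Rai14 were read on the same arrays, and none was 2-fold higher at 0.75 µg/ml, where 0.356% of all genes were. Sulf1, which encodes the other extracellular heparan sulfate sulfatase, had intensities of 11.8 in the control, 11.1 at 0.5 and 12.4 at 0.75 µg/ml, all within background. Uaca, an ankyrin and coiled-coil relative of Rai14, was at 19.4, 20.1 and 18.9, also under background. Ankrd24, another ankyrin-repeat and coiled-coil gene, was above background on every array, at 267, 284 and 306, and its difference at 0.75 µg/ml was 0.19.

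Genes of the actin cortex, where ankycorbin binds, showed few large differences beside Rai14. Of 40 listed genes for actin crosslinking, bundling and membrane linkage, 38 were measured and 33 passed the filter. At 0.75 µg/ml 0 of the 33 were higher by 2-fold and 2 were lower by 2-fold than in the control (0.356% and 1.57% of all genes were). The median difference over the measured genes was 0.07, against 0.01 over all genes. Actn1, which encodes the actin crosslinker alpha-actinin, was at 156 at 0.75 µg/ml against 392 in the control and was 2.51-fold lower. Fscn1, the gene of the filament bundler fascin, was under background on both arrays at 16.6 against 90.7. On the high side were Marcks, a membrane-linked actin crosslinker gene, at 860 against 497, and Enah, an actin elongation factor gene, at 134 against 91.9. Beta-actin itself (Actb) differed by 0.08.

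Retinoid genes were examined because Rai14 takes its name from retinoic acid. Of 25 listed genes 23 were measured and 11 passed the filter, of which 1 was 2-fold higher and 2 were 2-fold lower at the high dose (0.356% and 1.57% of all genes were), with a median over the measured genes of 0.10. The higher gene was Rxra, at least 1.69-fold over the control with the control value raised to background. The lower ones were the transglutaminase gene Tgm2, a known retinoic acid target, at 81.2 against 709, and the integrin gene Itga4, at 244 against 492. The retinoic acid receptor gene Rara was at 695 against 662. Rai14 and Tgm2 lay on opposite sides of the control. Rai14 was chosen for its rise and Tgm2 is named for the largest difference in this list, so a part of retinoic acid was not tested.

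The junction genes listed as partners of Jcad were mostly dim, as were most genes on the array. At 0.75 µg/ml 4 of 22 measured were above background, against 7610 of all 19505 genes. Cdh5, the gene of VE-cadherin, had intensities of 7.33 in the control, 7.99 at 0.5 and 9.02 at 0.75 µg/ml, far under background. Jcad was thus above background on an array where the cadherin it accompanies in endothelium was not. Of 24 listed cadherin, catenin and tight junction genes 22 were measured and 8 passed the filter. None of the 8 differed 2-fold at 0.75 µg/ml, where 0.356% of all genes were higher by that much and 1.57% were lower. Their differences ran from -0.16 to 0.18, and the median over the measured genes was -0.01. The alpha-catenin gene Ctnna1 was at 310 against 347.

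None of the Hippo pathway genes past the filter, to which JCAD protein connects through LATS2, differed 2-fold at 0.75 µg/ml. Over all genes past the filter, 0.356% were higher and 1.57% lower by that much, so 0 in a short list is near that share. Lats2 was at 75.6 at 0.75 µg/ml and 75.6 in the control, under background, and the YAP gene Yap1 was at 24.8 against 20.7. Of 20 measured Hippo kinases, YAP and TEAD genes 13 passed the filter, with differences between -0.34 and 0.76 and a median over the measured genes of 0.09. Stk4, which encodes the upstream kinase of the pathway, was at 274 against 212, and Nf2, the gene of its activator merlin, at 881 against 676. Among 24 measured YAP and TEAD target genes 12 passed the filter, 0 were 2-fold higher and 1 was lower (0.356% and 1.57% of all genes were). The median over the measured genes was -0.06. The lower gene was the phosphatase gene Ptpn14, at 213 against 445, and the next were Asap1, an Arf GTPase-activating protein gene, at 347 against 666, and Crim1 at 959 against 1466.

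Sulf2 acts on heparan sulfate, and of the genes for the proteins that carry these chains 1, the syndecan gene Sdc4, differed 2-fold at 0.75 µg/ml. It was lower, as were 1.57% of all genes by that much, and 0.356% were higher. Of the 13 proteoglycan core genes, 6 passed the filter, and 5 of them were below the control at that dose, as were 5218 of all 10940 genes past it. The median difference was 0.00 over all 13 core genes, also with values under background raised to it, and -0.61 over the 6, against 0.00 over all genes past the filter. Sdc4 was at 130.6 in the control, 113 at 0.5 and 34.4 at 0.75 µg/ml, at least 1.28-fold lower with the last value raised to background. Another syndecan gene, Sdc3, was at 133 against 228, the betaglycan gene Tgfbr3 at 311 against 461 and the glypican gene Gpc1, under background, at 59.8 against 88.4. Hpse, which encodes the heparanase that cleaves the chains, was under background throughout, at 86.4 in the control, 69.4 at 0.5 and 33.5 at 0.75 µg/ml.

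For the enzymes that build and sulfate heparan sulfate, of 26 listed genes 23 were measured and 19 passed the filter, with 4 above and 15 below the control at 0.75 µg/ml and a median of -0.11. Over all 10940 genes past the filter, 5496 were above the control and 5218 below it. None was 2-fold higher and 1 was 2-fold lower (0.356% and 1.57% of all genes were). The lower gene was Papss2, which makes the sulfate donor and was under background at 25.6 against 61.4. Hs6st1, which adds the kind of sulfate group that Sulf2 removes, was at 53.7 against 71.4, under background, and the chain polymerase gene Ext1 was at 137 against 185. Xylt1, which starts the chain's linker on the core protein, lay on the other side, at 59.4 against 32.6, under background, with a log2 difference of 0.87 at 0.75 and 0.96 at 0.5 µg/ml. Among 13 measured other sulfatases, their activators and heparanase, 9 passed the filter. Of these 0 were 2-fold higher and 1, Hpse, was lower, beside the same 0.356% and 1.57% of all genes. Sulfatases need an activating enzyme in the endoplasmic reticulum, encoded by Sumf1, which was at 67.8 against 51.7, under background. The related gene Sumf2 was at 217 against 142.

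Of 16 listed cytokines and chemokines that bind heparan sulfate, 15 were measured and 9 passed the filter, with 2 higher and 2 lower by 2-fold at the high dose (0.356% and 1.57% of all genes were) and a median over the measured genes of 0.04. With dim values raised to background none of these 4 reached 2-fold. The higher ones were Csf2, at 170 against 36.4, and the chemokine gene Ccl3, at 143 against 58.7. With the control values raised to background, Csf2 was at least 1.67-fold and Ccl3 at least 1.40-fold higher. The lower ones were the angiogenic factor gene Vegfa, at 46.4 against 168 or at least 1.65-fold lower, and the interferon-inducible chemokine gene Cxcl10, at 31.3 against 105 or at least 1.03-fold lower. Of the 9 ligand genes 5 were above and 4 below the control.

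**Figure D3:**
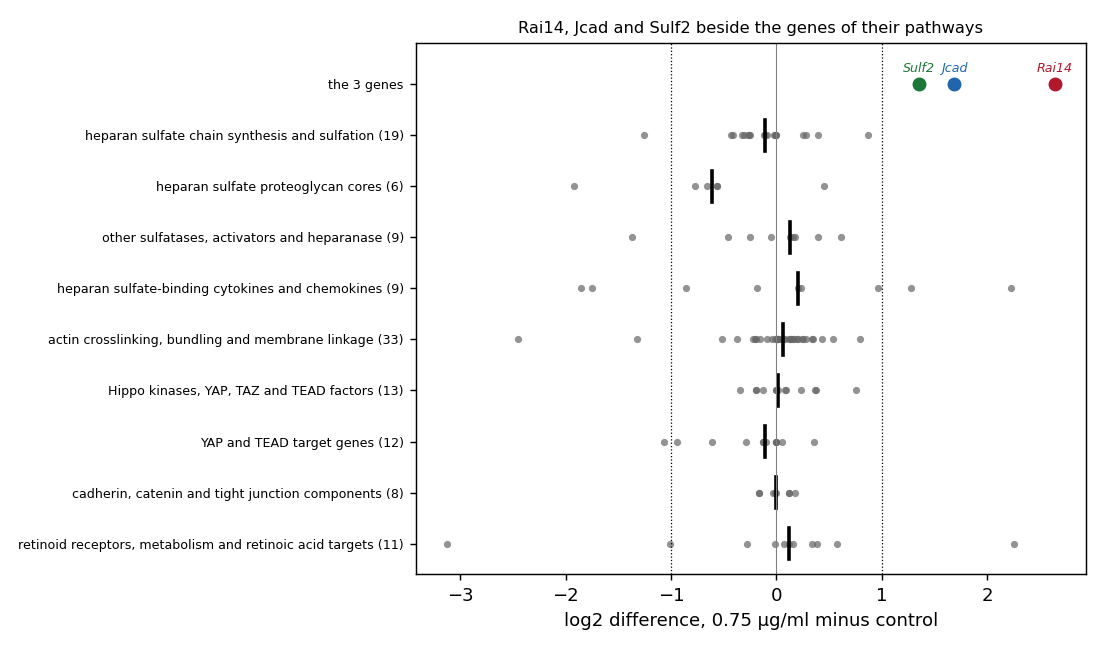
Log2 difference of 0.75 µg/ml from the control (horizontal axis) for Rai14, Jcad and Sulf2 (top row) and for the genes past the level filter in each list of related genes, 1 point per gene, with the number of genes in brackets, black bars at the median and dotted lines at 2-fold. The 3 genes lie at 1.36 or more, and 5 of the 6 proteoglycan core genes lie below 0.

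The cells' identity was checked with marker genes, since Jcad is best known from endothelium. All 9 measured CD8 T cell markers were above background in the control, and 8 of them were at 0.75 µg/ml, where perforin (Prf1) was at 93.9. Their summed intensities were 24356 in the control, 24784 at 0.5 and 23071 at 0.75 µg/ml, and the sums below follow that order. Of the 9 markers 7 were below the control at 0.75 µg/ml, as were 5218 of all 10940 genes past the filter, and their median difference was -0.18. Below it were Prf1 at -0.46, Cd8a at -0.35, Cd8b1 at -0.34, Cd3d at -0.34, Ifng at -0.18, Cd3g at -0.09 and Cd2 at -0.01. Above it were Gzmb at 0.10 and Cd3e at 0.07. Whether these differences have a part in the values of Rai14, Jcad and Sulf2 was not tested. The 11 measured endothelial markers summed to 547, 528 and 536, with 2 above background on each array, Pecam1, which T cells also express, and Esam at 184, 167 and 165. The 11 macrophage, dendritic cell and monocyte markers had 0 above background on any array and summed to 219, 233 and 225, and the 8 epithelial markers likewise had 0 and summed to 248, 259 and 238. The 7 B cell markers summed to 275, 246 and 265, with 1 above background at 0.75 µg/ml and in the control (Cd79b, at 105 against 111) and 0 at 0.5 µg/ml. The 11 fibroblast and stromal markers summed to 2203, 2487 and 2774, of which Thy1, a gene that mouse T cells express strongly, made up 1979, 2274 and 2552 and was the only member above background.

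The 3 genes kept a log2 difference above 1 at 0.75 µg/ml under each of 5 other treatments of the values. They were chosen for this difference, so its persistence describes the chosen values and is no separate evidence of a rise. Averaging probe sets could not change the 3 differences, and median scaling and quantile normalization barely moved them. The larger shifts came from raising values under background and from the offset of 50. The lowest value was 1.66 for Rai14 and 1.08 for Jcad, both with values under background raised, and 1.08 for Sulf2 with 50 added to every intensity. Raising dim values left this difference of Sulf2 at 1.36, because its control intensity was above background. Each gene has 1 probe set, so no second measurement of the same transcript on the array was available.

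**Figure D4:**
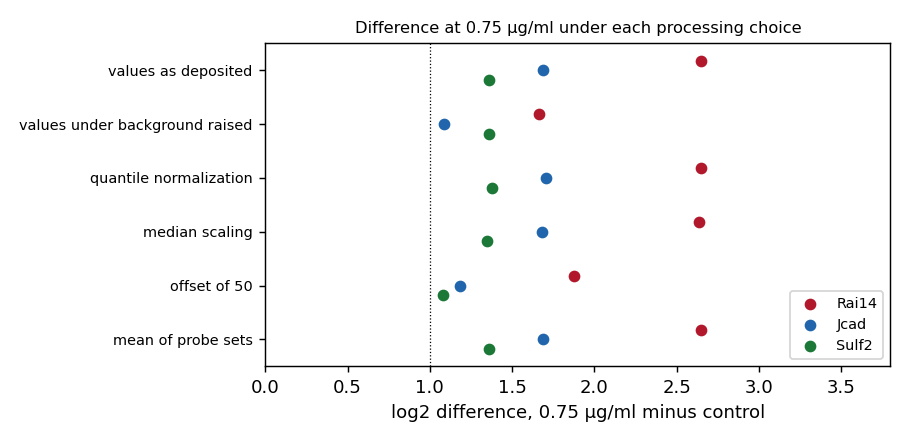
Log2 difference of 0.75 µg/ml from the control (horizontal axis) for Rai14, Jcad and Sulf2 with the values as deposited and under 5 other treatments (rows), with a dotted line at 2-fold. All points lie right of the line, the lowest at 1.08. The genes were chosen for this difference, so the points describe it and are no separate evidence of a rise.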

How the data were processed

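Per the labels, Trizol-extracted total RNA of 3 mouse CD8 T cell samples received a biotin label through whole-transcript sense target preparation. The values in the deposited table are intensities on a linear scale, judged from the values themselves. How the authors corrected background and normalized, and with which software, is not given in the sources used here. The platform annotation named a single gene for 19572 of 22206 transcript probe sets, several for 0 and none for 2634, and every named identifier was found in RefSeq GRCm38.p6. The brightest probe set was used for the 55 genes with several. Log2 was taken after a floor of 1, with no further normalization.

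Comparisons are differences of log2 values between 2 arrays, with no test. Named genes were the 3 genes, 3 relatives, the 5 nearest patterns of each, up to 4 members per list with the largest difference at 0.75 µg/ml, and 10 fixed partners. Gene lists and markers were drawn up for the 3 genes' pathways. Members and lists were chosen with earlier results of these data known. Listed genes without a value, such as Ndst1, were not analysed here. Alternatives were raising values under background, quantile normalization, median scaling, an offset of 50, averaging probe sets, and 2 other level filters. Calculations used Python 3.11.15, numpy 2.4.6 and pandas 2.3.3, with plots by matplotlib 3.10.9. The step that takes differences of log2 values was tested on simulated data, with large shifts at 0.75 µg/ml and no level filter. The raising of values to background, the nearest patterns, the lists and the motif search were not tested this way.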

Additional observations from a re-analysis of the deposited data

How the results depend on the processing

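With 1 array per group, the spread against which a setting was judged was the SD of positive-control probe sets between the same 2 arrays. Of 180 recomputed log2 differences, of the 3 genes and of the medians of 9 gene lists, 170 moved by less than that SD, 10 moved by more and 0 changed sign after a 2-fold call. All 10 were of the 3 genes, 5 with values under background raised and 5 with the offset. The list medians were near 0 from the start and had little room to move. The 170 are thus no measure of how stable the 3 genes were. Quantile normalization, median scaling and averaging of probe sets moved none of the 180 differences and no count of genes by over 1.5 times. With values under background raised to it, the 0.75 µg/ml difference from the control was 1.66 for Rai14 and 1.08 for Jcad, that from 0.5 µg/ml was 1.66 and 1.08, and Rai14 at 0.5 µg/ml differed from the control by 0.00. With an offset of 50 the difference from the control was 1.87 for Rai14 and 1.18 for Jcad, and that from 0.5 µg/ml was 1.62, 1.19 and, for Sulf2, 1.37. Both treatments shrink differences of dim values by construction.

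Counts of genes at least 2-fold different depended on how dim values were treated. With values raised, they were 15 higher and 98 lower at 0.75 µg/ml than in the control, 2 and 1 at 0.5 µg/ml, and 12 and 75 between the doses. With the offset, they were 12 and 91, 0 and 1, and 10 and 52. Without a level filter, they were 82 higher at 0.75 µg/ml, 25 higher and 29 lower at 0.5 µg/ml, and 76 higher between the doses. With the filter set at background, they were 14 and 108, 2 and 1, and 14 higher between the doses. Jcad did not pass that stricter filter. The signal over background limits Rai14 and Jcad most, since both lay under it on 2 of 3 arrays. No paired analysis was possible because each group had 1 array.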

Other observations

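Genes that lie next to the 3 genes in the RefSeq order of their chromosomes were looked up after the values of Rai14, Jcad and Sulf2 were known. Of the 2 nearest measured genes on either side of Rai14 on chromosome 15, those past the level filter were Rad1, a DNA damage checkpoint gene, at 163 at 0.75 µg/ml against 138 in the control, and Amacr, a racemase gene of branched-chain fatty acid breakdown, at 94.8 against 67.0, under background. Next to Jcad on chromosome 18, Svil, the gene of the actin-linked protein supervillin, was at 196 against 192, and Mtpap, which encodes the mitochondrial poly(A) polymerase, at 202 against 181. Next to Sulf2 on chromosome 2, Ncoa3, a nuclear receptor coactivator gene, was at 283 against 328, and Prex1, which encodes a Rac exchange factor, at 170 against 167. None of the neighbours looked up differed 2-fold from the control at 0.75 µg/ml, where 0.356% of all genes were higher by that much and 1.57% were lower.

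Exactly equal values on 2 arrays occurred for 613 of 19572 named probe sets between 0.75 µg/ml and the control, which is 3.13%. Lats2 is one of them. Such pairs carry a difference of 0.00 that comes from the deposited values themselves, and how they arose was not tested.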
